A study of Mus musculus with 30 samples.

Results

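The report covers 828 short windows of the mouse genome that were read by ATAC-seq in NIH3T3 cells and gave almost no reads in marrow mesenchymal stem cells (MSC). ATAC-seq marks open chromatin through a transposase that inserts sequencing adapters where DNA is accessible, and each window is a peak region in which the authors counted reads. Windows were chosen by their CPM, the read count of a window scaled to all reads counted in that library, where 1 CPM stood for 14.5 to 35 reads at 4 h. A member lay on an autosome, reached 1 CPM or more in all 3 NIH3T3 control libraries and stayed at 0.2 CPM or less in all 3 MSC control libraries. This left 828 of 361428 autosomal windows, out of 369846 windows in the 4 h table. A further 84089 autosomal windows reached 1 CPM in all 3 controls of each cell type and are called open in both below, and 646 met the mirror rule, open only in MSC. Because the control libraries chose the members, the difference between the 2 control groups is not a result here.

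The series asked how chromatin responds when actin structure is disturbed. The 4 h data hold 4 groups of 3 libraries: NIH3T3 control, NIH3T3 with CK666, MSC control and MSC with CK666, where control means untreated in the labels. The MSC were grown out of the marrow of 6 mice, labelled male and C57BL/6J, that gave 1 primary line used throughout, so the MSC libraries stand for 1 line, and NIH3T3 is an established line of embryonic fibroblasts. The labels give strain C57BL/6J and male sex for NIH3T3 too, although the line was derived from Swiss mouse embryos. Y chromosome reads ran from 11.1 to 17.5 CPM in the NIH3T3 libraries and from 99.1 to 112 CPM in the MSC libraries at 4 h. A second table holds MSC at 24 h, with 3 libraries each of control, CK666 and cytochalasin D (CytoD). No label ties the libraries of a group to separate cultures or animals, so the p-values measure the spread between these libraries, which may be technical.

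CK666 blocks the Arp2/3 complex, which starts new actin branches on the side of existing filaments, and CytoD caps filament ends and sends monomeric actin into the nucleus. Regions of open chromatin away from gene starts are mostly enhancers, short stretches bound by transcription factors that differ widely between cell types, while gene starts and CTCF sites are open in most cells. In fibroblasts, AP-1, a dimer of FOS and JUN proteins, binds many enhancers. RUNX factors mark enhancers of the skeletal and marrow lineages.

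The sequences of 6 members are shown first, as examples of the strongest signal and of the largest response to CK666. Each is the central stretch of its window on the plus strand, 5′ to 3′, read from the mm10/GRCm38 reference. Capitals mark matches to the AP-1 motif TGANTCA.
The 2 members below, nearest to Ifne and Gm10974, were among the 6 with the highest NIH3T3 control level.
Ifne, chr4:88942028-88942228: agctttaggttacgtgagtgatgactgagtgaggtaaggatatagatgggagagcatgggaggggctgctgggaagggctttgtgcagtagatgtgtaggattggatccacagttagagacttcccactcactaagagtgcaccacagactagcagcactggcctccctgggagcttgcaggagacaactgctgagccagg
Gm10974, chr7:66293430-66293630: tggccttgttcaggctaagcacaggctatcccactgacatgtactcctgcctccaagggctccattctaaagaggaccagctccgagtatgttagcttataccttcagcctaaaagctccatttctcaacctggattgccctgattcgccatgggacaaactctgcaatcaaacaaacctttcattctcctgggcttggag
The next 2, nearest to Tnr and Fat1, had the largest gains with CK666 in NIH3T3.
Tnr, chr1:159745373-159745573: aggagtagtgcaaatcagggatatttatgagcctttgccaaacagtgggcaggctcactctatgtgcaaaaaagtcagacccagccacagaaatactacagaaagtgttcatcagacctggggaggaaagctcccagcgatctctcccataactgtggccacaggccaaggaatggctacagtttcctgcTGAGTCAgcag
Fat1, chr8:44838595-44838795: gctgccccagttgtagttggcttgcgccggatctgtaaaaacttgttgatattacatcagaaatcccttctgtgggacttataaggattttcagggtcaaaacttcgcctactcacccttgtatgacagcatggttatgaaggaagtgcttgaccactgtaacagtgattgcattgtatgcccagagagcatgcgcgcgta
The last 2, nearest to Sacm1l and Adgrl2, were among the 5 largest losses.
Sacm1l, chr9:123564937-123565137: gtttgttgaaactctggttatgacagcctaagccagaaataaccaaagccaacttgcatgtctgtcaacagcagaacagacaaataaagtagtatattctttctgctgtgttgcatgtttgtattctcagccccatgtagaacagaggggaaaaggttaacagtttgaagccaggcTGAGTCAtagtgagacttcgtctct
Adgrl2, chr3:149459792-149459992: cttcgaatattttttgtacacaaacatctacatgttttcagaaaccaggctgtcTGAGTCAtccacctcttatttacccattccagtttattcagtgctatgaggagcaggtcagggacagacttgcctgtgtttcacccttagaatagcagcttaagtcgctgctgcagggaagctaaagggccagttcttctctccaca
Both of these losses and 1 of these 2 gains held an AP-1 match, and the examples of the highest signal held none.

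The libraries held 14496058 to 34979833 counted reads at 4 h, with NIH3T3 CK666 replicate 1 the shallowest, and 14071301 to 22352180 at 24 h. The MSC limit of 0.2 CPM was 5.85 to 6.00 reads in the MSC controls. The members had a median of 45 to 53 reads in the NIH3T3 controls and of 3.00 to 4.00 reads in the MSC controls. Start windows of Col1a1, Col1a2, Col3a1, Pdgfra and Pdgfrb, genes of fibroblasts and stromal cells, were read in both cell types. In each cell type 6 of 8 fibroblast marker genes were at 1 CPM or more in every control library, but not the same 6. Thy1 met this only in NIH3T3 (2.26 to 3.25 CPM, against 0 to 0.0684 CPM in MSC) and Fap only in MSC. No start of the 6 epithelial markers had a window, and 4 of 10 macrophage and 5 of 8 endothelial markers had one, at summed levels of 12.9 and 7.96 CPM in NIH3T3 control and of 12.4 and 9.17 CPM in MSC control. Of 8 marrow stromal marker genes, 7 were at 1 CPM or more in every NIH3T3 control and 6 in every MSC control. Their summed levels were 153 CPM in NIH3T3 control and 182 CPM in MSC control. Lepr and Vcam1 were higher in every NIH3T3 control than in any MSC control, and Cxcl12, Alpl, Spp1 and Kitl the reverse. This list therefore did not separate the cell types. Cdkn2a is a tumour suppressor gene that NIH3T3 cells have lost. Its start window read 0 to 0.0821 CPM in the NIH3T3 controls and 17.7 to 21.0 CPM in the MSC controls. That single gene fits the labels of the cell types.

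The rule cut through a continuous range. Of the members, 102 had their lowest NIH3T3 control value between 1 and 1.1 CPM, and 181 further windows missed only that limit, at 0.9 to 1 CPM. On the MSC side 389 members had their highest control value above 0.15 CPM, and 919 windows missed only that limit, at up to 0.25 CPM. With one MSC control library left out of the rule the number of members rose to 1630, 1274 or 1663, and with one NIH3T3 control left out to between 921 and 1036.

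Most members were still higher in NIH3T3 in the 6 libraries that had no part in the choice. With CK666 present in both cell types, every NIH3T3 library lay above every MSC library at 811 of the 828 members (97.9%), against 30.9% of windows open in both and 40.2% of all autosomal windows. The edgeR test of NIH3T3 CK666 against MSC CK666 called 751 members higher in NIH3T3 and none lower, where a call took an adjusted p below 0.01 together with a log2 difference over 1, with 797 members past the filter on low counts. Of all windows tested, 19.2% were called higher in NIH3T3 in that comparison. By the unadjusted p, 784 members had p under 0.05, all of them higher in NIH3T3, and DESeq2 called 717 higher. In NIH3T3 CK666, 548 members (66.2%) stayed at 1 CPM or more in all 3 libraries. In MSC CK666, 300 (36.2%) stayed at 0.2 CPM or less in all 3 libraries, 70 (8.45%) were above 0.2 CPM in all 3, and none reached 1 CPM in all 3. A total of 188 members (22.7%) met both limits again in the CK666 libraries. Fewer cells with an open window and a lower signal per cell cannot be told apart in such bulk libraries.

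**Figure D1:**
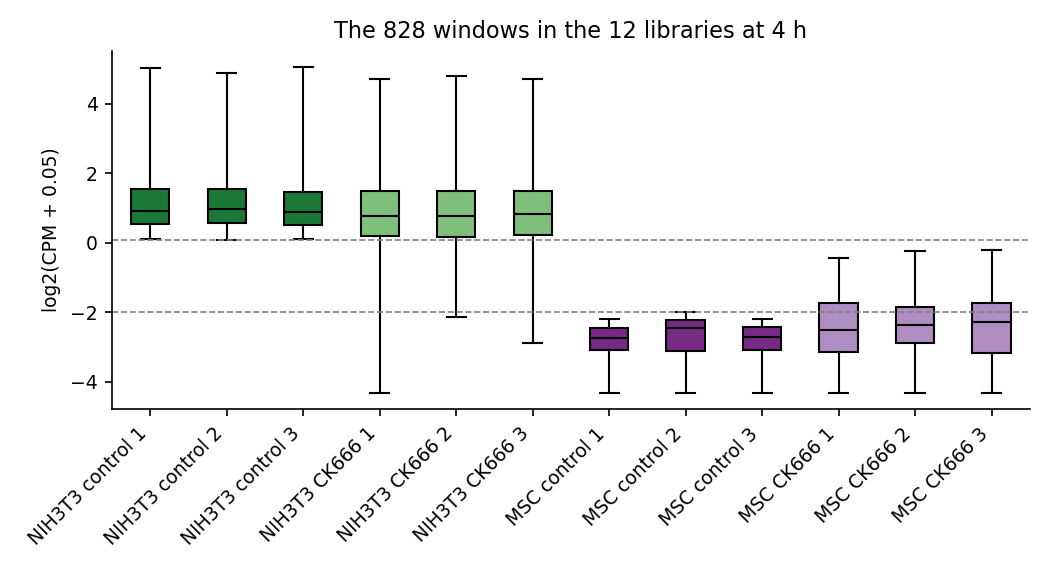
Level of the 828 members in each library at 4 h, as log2(CPM + 0.05); boxes span the quartiles of the members, the line is the median and whiskers reach the lowest and highest member. Dashed lines mark the limits of 1 and 0.2 CPM. The MSC CK666 medians lie between 0.126 and 0.156 CPM and the NIH3T3 CK666 medians between 1.66 and 1.73 CPM.

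The strongest member covered the start of Zfp932, a gene of the large zinc finger family (mm10 chr5:109996249-109996753). It gave 32.7, 29.7 and 33.3 CPM in the NIH3T3 controls, 26.3, 28.1 and 26.4 CPM with CK666, and no read in any of the 3 MSC CK666 libraries. The 2 NIH3T3 groups did not overlap, but the log2 fold change of -0.35 was inside the limit of 1. With the 0 reads taken as 3 reads over the 3 libraries together, the window was 887-fold higher in NIH3T3 CK666 than in MSC CK666. That floor allows for counting error only and is not a strict upper limit. A second member 355 bp from that start (chr5:109996877-109997822) gave 2.51 to 3.57 CPM in the NIH3T3 controls and no read in the 6 MSC libraries. Zinc finger genes have close copies in the genome, and how the authors treated reads that match several copies is not stated in the labels or methods, so these 2 values are uncertain. In all, 5 members had no read in any of the 6 MSC libraries.

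The other members of highest level lay away from gene starts. The window 61674 bp from Ifne, the interferon epsilon gene (chr4:88941875-88942381, intergenic), gave 30.5, 27.8 and 25.6 CPM in NIH3T3 control and 22.7, 25.3 and 25.2 CPM with CK666. The intronic window 71863 bp from Gm10974 (chr7:66293018-66294042) gave 25.2, 25.1 and 24.1 CPM and then 19.5, 20.1 and 19.7 CPM. In both windows the CK666 libraries lay below the controls, by -0.30 and -0.43 on the log2 scale, and neither was called. The window 20899 bp from Pdzk1ip1 (chr4:115109622-115110137) gave 18.2, 16.2 and 19.1 CPM in control and 10.3, 9.01 and 9.20 CPM with CK666, a called decrease (log2 fold change -1.02 ± 0.138 SE, adjusted p = 5.70e-08). The intronic window 19158 bp from Lpcat2, an enzyme of phosphatidylcholine synthesis (chr8:92874553-92875065), gave 17.3, 15.9 and 18.9 CPM in control and 14.5, 16.5 and 17.4 CPM with CK666, and these groups overlapped. The window 28246 bp from Nmi (chr2:52001470-52002008) is described with the MSC response below.

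The members lay further from gene starts than windows open in both cell types. Only 26 of 828 members (3.14%) held an annotated gene start, against 14.9% of windows open in both and 5.32% of all autosomal windows. Of the rest, 336 (40.6%) were in introns, 69 (8.33%) in exons and 397 (47.9%) between genes. The median distance to the nearest protein-coding gene start was 39898 bp, against 19031 bp for windows open in both and 33380 bp for all autosomal windows. The median width was 554 bp and the median GC content of the central 300 bases 45.7%, against 607 bp and 47.7% for windows open in both. The mean share of CpG dinucleotides was 2.65% in members, 4.15% in windows open in both and 2.61% in all autosomal windows. The classes also differed in level. A mean of 1 to 2 CPM in NIH3T3 control was found at 469 of 828 members and 16681 of 84089 windows open in both. Position and sequence were not compared at equal level.

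Motif matches in the central 300 bases, which the rule did not use, differed between the classes. AP-1 (TGANTCA) was found in 40.6% of members, 30.8% of windows open in both, 26.5% of windows open only in MSC and 28.6% of all autosomal windows. Leaving out windows with a gene start, the shares were 41.1% of members and 34.9% of windows open in both. SOX (CCATTGT) was found in 7.0% of members, 3.64% of windows open in both, 5.42% of windows open only in MSC and 4.39% of all autosomal windows. The motif of HOX and TALE homeodomain pairs (TGATTNAT) was found in 10.4%, 6.06%, 7.74% and 6.36% of these classes. RUNX (TGTGGTT) went the other way, with 5.80% of members, 9.45% of windows open in both and 18.6% of windows open only in MSC. TEAD (GGAATGT), the partner of YAP, was found in 4.95%, 7.15% and 9.60% of the members, windows open in both and windows open only in MSC. The core of the CTCF motif was found in 0 of 828 members, in 0.774% of windows open only in MSC, in 3.88% of windows open in both and in 1.69% of all autosomal windows. These are counts of letters on either strand for 20 motifs, without a test, and a match is not a bound site. The classes were not matched for level here either.

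**Figure D2:**
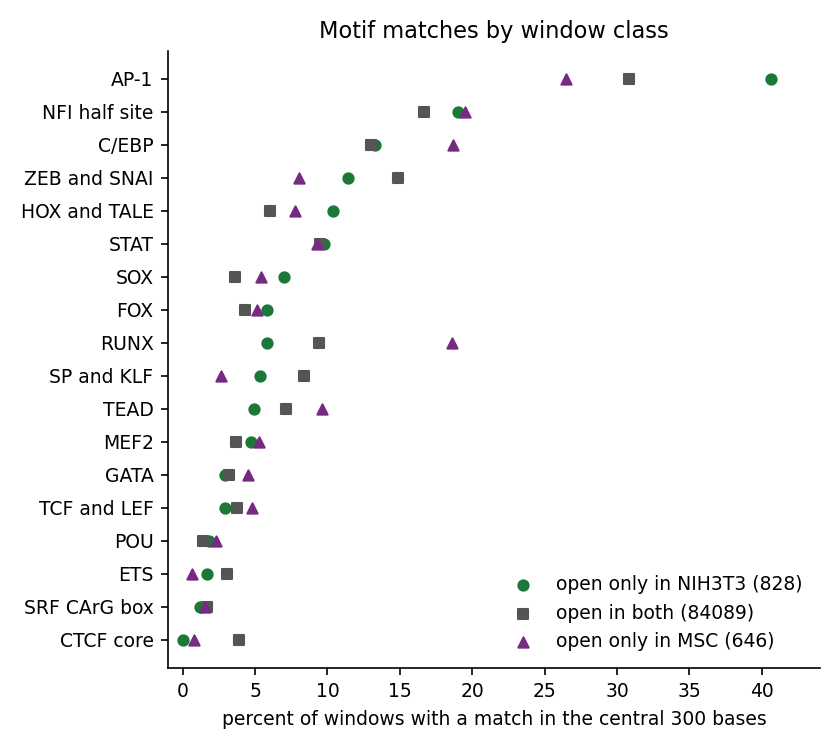
Percent of windows with a match in their central 300 bases (x axis) for each motif but the E-boxes (y axis), in the 828 members (circles), windows open in both cell types (squares) and windows open only in MSC (triangles). AP-1 stands at 40.6% of members and 26.5% of windows open only in MSC, and RUNX at 5.80% and 18.6%.

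Members were spread over all autosomes but were dense on chromosome 4. That chromosome held 170 of the 828 members (20.5%) and 6.89% of the autosomal windows. The members crowded between 60 and 130 Mb of chromosome 4, a stretch chosen after the values were seen, which held 125 members (15.1%) and 4.30% of the windows. In this stretch the median window gave 0.30 to 0.342 CPM in the MSC controls and 0.314 to 0.343 CPM in MSC CK666, while the median of all other autosomal windows was 0.733 to 0.752 and 0.727 to 0.780 CPM. In the NIH3T3 controls the same medians were 0.903 to 1.04 CPM in the stretch and 0.821 to 0.933 CPM elsewhere. Reads on the whole of chromosome 4 made up 4.60 to 4.64% of the counted reads in the 6 MSC libraries at 4 h and 6.96 to 7.08% in the 6 NIH3T3 libraries. In the MSC libraries of the 24 h table that share was 4.14 to 4.32%. The low MSC median at 4 h thus held for the windows listed across the stretch and not for the members alone. Such a median depends on which windows are listed. The 4 h table, which holds libraries of both cell types, held 222 windows per Mb in the stretch and 109 in the rest of the chromosome, while the 24 h table of MSC held 76.0 and 81.6 regions per Mb. In the 24 h MSC libraries the median region of the stretch was 1.0 to 1.18 times that of other autosomal regions, so the regions that table lists were not low there. Fewer DNA copies in MSC, more copies in NIH3T3 and a difference in accessibility per copy cannot be told apart with these data. Of 490 bins of 5 Mb with 100 or more windows, 20 had an MSC control median under 0.5 of the NIH3T3 median. Of these 20 bins, 14 were on chromosome 4, and all 20 together held 141 members (17.0%). When CPM was first scaled to the median of each group's windows in the same 5 Mb bin, the rule gave 940 members. Of these, 565 were among the 828. The rule on unscaled CPM gave 658 members without chromosome 4.

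**Figure D3:**
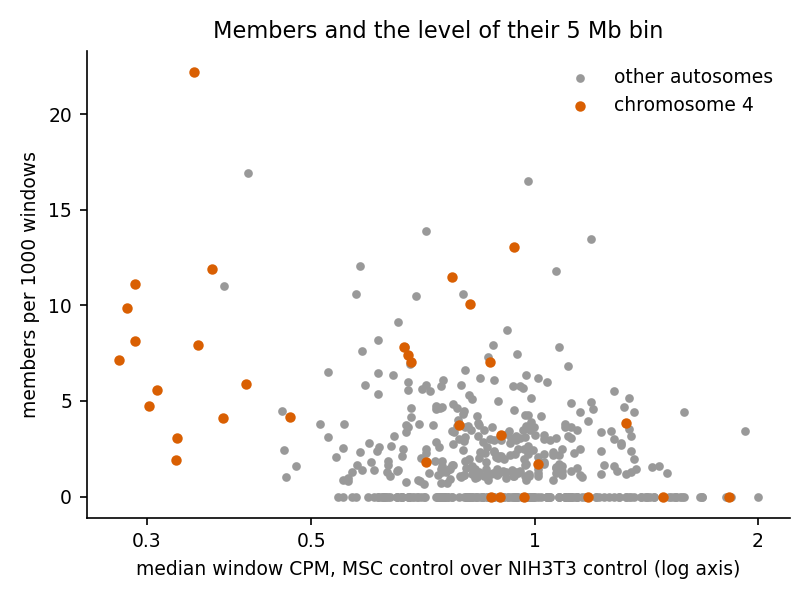
Each point is a 5 Mb bin with 100 or more windows; the x axis is the median window CPM of MSC control divided by that of NIH3T3 control (log axis) and the y axis the members per 1000 windows. The bins of chromosome 4 are coloured, and 14 of the 20 bins under a ratio of 0.5 belong to it.

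Joined over gaps of up to 50 kb, 662 members (80.0%) had no other member nearby, 104 formed pairs and 62 formed 18 groups of 3 or more. The same count was not made for other sets of windows of this size. These shares therefore do not say whether members stood apart or clustered. At 443 members (53.5%) a window with 1 CPM or more in all 3 MSC controls lay within 10 kb. Another such window lay that close to 84.3% of windows open in both and to 70.1% of all autosomal windows. The largest group held 8 members over 102279 bp on chromosome 4, in introns, with Glis1 and Dmrtb1, both genes of DNA-binding proteins, as nearest genes. It lies in the stretch of low MSC window medians at 4 h described above. Its 5 Mb bin, from 105 Mb, held 27 members among 1216 windows, at an MSC to NIH3T3 ratio of control medians of 0.348. The next held 5 members over 38624 bp of the Hoxa cluster (chr6:52164875-52203498), the homeobox genes that give cells their place along the body axis. These 5 gave means of 7.76, 1.53, 7.01, 4.52 and 1.59 CPM in NIH3T3 control and of 0.090 to 0.135 CPM in MSC control. With CK666 they gave 5.06, 1.88, 5.89, 6.93 and 1.86 CPM in NIH3T3 and 0.121 to 0.325 CPM in MSC. All 5 were called higher in NIH3T3 with CK666, and none was called for CK666 against control in NIH3T3. Both groups were picked out after their values were seen.

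A protein-coding gene start lay within 50 kb of 450 members (54.3%), against 71.0% of windows open in both and 59.4% of all autosomal windows, and 409 genes had at least 1 such member. Lrp8, a receptor for reelin and apolipoprotein E, had the most, with 4 members summing to 7.34 CPM in NIH3T3 control. Foxl1, a forkhead factor of mesenchyme next to epithelia, had 3 members that summed to 14.1 CPM. The skeletal muscle calcium channel Ryr1, the amino acid transporter Slc38a4, Gas7 and Sgip1 had 3 each. Zfp932, Ube2v1, Meltf and Srrm4 had 2 each and came next by summed level. The members near Lrp8 and Sgip1 all lie between 60 and 130 Mb of chromosome 4, the stretch described above where members were dense. The 3 Foxl1 members lay 26586 to 36197 bp from its start, in introns that need not be of Foxl1. They gave 2.14 to 9.01 CPM over the NIH3T3 controls and 0.0624 to 0.343 CPM over the MSC CK666 libraries. The 3 Slc38a4 members spanned 2225 bp from its start into the gene, and the 3 Ryr1 members spanned 2551 bp of an intron. Among the 4 Lrp8 members, 1 was called for CK666 in NIH3T3, at chr4:107765942-107766667. It gave 1.31, 1.0 and 1.26 CPM in control and 1.93, 3.09 and 2.72 CPM with CK666 (log2 fold change 1.04 ± 0.270 SE, adjusted p = 0.00502). None of the members near the other 9 genes was called.

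Protein-coding gene starts were covered by 16 members (1.93%), against 13% of windows open in both. After Zfp932 the highest covered Mab21l1, a gene of eye and limb development (chr3:55782202-55782720), with 5.54, 5.17 and 4.51 CPM in NIH3T3 control and 6.83, 5.96 and 7.26 CPM with CK666. Zrsr1, an imprinted gene related to splicing factors (chr11:22971667-22972207), gave 4.68, 5.06 and 4.25 CPM and then 4.69, 5.92 and 5.88 CPM. Slc38a4, also imprinted in the mouse (chr15:97055759-97056294), gave 4.10, 4.49 and 4.29 CPM and then 2.35, 3.63 and 2.81 CPM. The Zrsr1 groups overlapped, and the Mab21l1 and Slc38a4 groups did not, though neither was called (log2 fold changes 0.29 and -0.63). The start of Lhfpl2 (chr13:94173649-94174262) gave 3.18 to 5.13 CPM in control and 3.24 to 4.58 CPM with CK666. The start of Slc16a13, a monocarboxylate carrier (chr11:70220619-70221382), gave 3.98 to 4.23 CPM and then 5.10 to 7.17 CPM, with a log2 fold change of 0.41 that was not called. In MSC CK666 these 5 starts gave at most 0.286 CPM in any library. Among the other starts were Thy1, Tbx4, Igfbp6 and Cspg4, named here after their values were seen.

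Lists of genes were read beside the same counts in windows open in both and in all autosomal windows. Embryonic patterning factors had 5 members at 4 of 58 genes, 0.604% of members against 0.278% of windows open in both and 0.292% of all autosomal windows. These were 2 members in introns near Meis1, a TALE homeodomain factor, and 1 each at Tbx4, a factor of the hindlimb field, Foxf2 and Irx5. They gave means of 1.65 to 3.40 CPM in NIH3T3 control and of 0.880 to 2.61 CPM with CK666, and all 5 were called higher in NIH3T3 than in MSC with CK666. Fibroblast genes had 2 members (0.242% against 0.175% of windows open in both), at the start of Thy1 and 16477 bp from Ddr2, a collagen receptor. The Thy1 start, which codes for a surface protein used to sort fibroblasts and stromal cells (chr9:44043102-44043624), gave 2.71, 2.26 and 3.25 CPM in NIH3T3 control and 3.45, 3.99 and 4.15 CPM in NIH3T3 CK666. In MSC it gave 0, 0 and 0.0684 CPM in control and 0.0632, 0 and 0 CPM with CK666, which leaves this start near 0 in every MSC library. The Ddr2 member gave 0.863 CPM in NIH3T3 CK666 and 0.222 CPM in MSC CK666 and was not called between them. Targets of SRF and YAP had 2 members (0.242% against 0.214%). The one 420 bp from the start of Ankrd1, a muscle and stress response gene (chr19:36118790-36119490), gave a mean of 1.42 CPM in NIH3T3 control and 2.95 CPM with CK666, with a log2 fold change of 0.95 inside the limit. The one near Tpm1, a tropomyosin that stabilises actin filaments, gave 1.51 and 1.83 CPM.
Growth factors and their receptors had 1 member (0.121% against 0.219%), 1562 bp from the start of Pdgfa, a ligand of the PDGF receptors (chr5:138992871-138993391), with a mean of 13.9 CPM in NIH3T3 control. Marrow stromal genes had 1, at 8630 bp from Lepr (0.121% against 0.157%), and axon guidance genes 1, at 32662 bp from Nrp2 (0.121% against 0.188%). No member lay within 50 kb of, and nearest to, a gene of the lists of adipogenic, cadherin, skeletal muscle, actin nucleation, macrophage, endothelial, epithelial or neuronal genes. Several of these lists are short, and windows open in both had 0.0238% to 0.235% of their number near a gene of one. The lists do not hold every gene of their kind, so these zeros are about the listed genes only. Ryr1, which had 3 members near it, is not in the skeletal muscle list.

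CK666 at 4 h in NIH3T3 lowered more members than it raised, and this balance turned when other libraries chose the windows. The test called 89 of 828 members decreased (10.7%) and 8 increased (0.966%), while of all windows tested 1.67% were called decreased and 1.88% increased. With scaling by total counts in place of TMM, the counts were 60 decreased and 17 increased, and over all windows 3628 were decreased and 7872 increased, against 5544 and 6226 with TMM. The median log2 fold change of the members was -0.31, with quartiles of -0.74 and 0.08, and that of all windows tested was 0.04. The rule had picked windows that were high in the control libraries, so a fall in the other group is built into the choice in part. Windows open in both share the NIH3T3 limit, and there 3.12% were decreased and 0.812% increased, with a median of -0.16. When the same limits were applied to the CK666 libraries instead, 1092 windows met them, of which 44 (4.03%) were decreased and 87 (7.97%) increased. Among the 1732 windows that met the limits in the controls or with CK666, 123 (7.10%) were decreased and 93 (5.37%) increased, and among the 188 that met them in each, 10 (5.32%) were decreased and 2 (1.06%) increased.

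**Figure D4:**
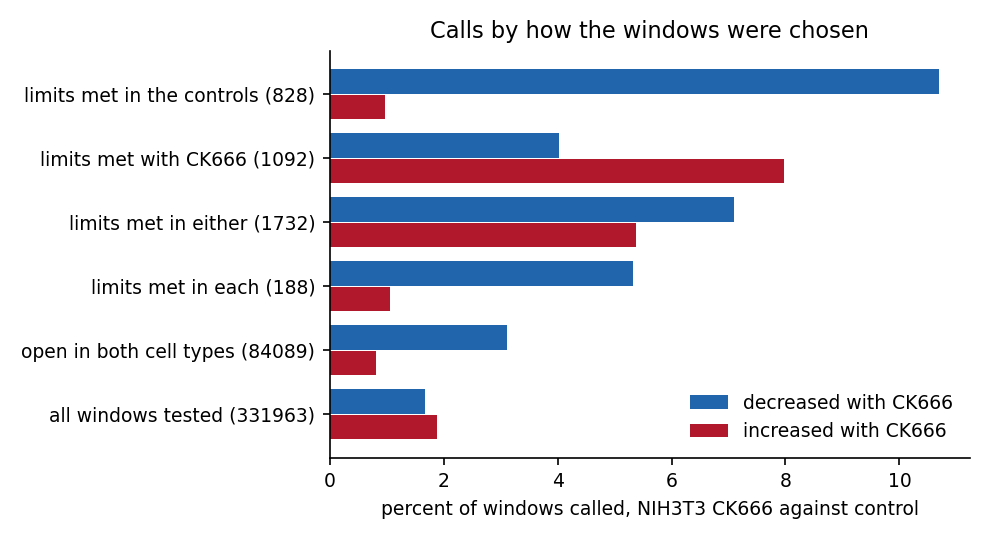
Percent of windows called decreased or increased by CK666 in NIH3T3 (edgeR, the same limits for a call), by how the windows were chosen, with the number of windows in brackets. Among members, chosen in the controls, more were called decreased than increased (10.7% against 0.966%). Among windows chosen with CK666, more were called increased than decreased (7.97% against 4.03%).

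More members were called decreased at higher read numbers, while the median log2 fold change was -0.28, -0.38 and -0.36 from the lowest to the highest of 3 ranges of level. These ranges use the control values that chose the members. The decreased share was 6.40% of the 469 members with a mean of 1 to 2 CPM in NIH3T3 control, 16.2% of the 277 between 2 and 5 CPM, and 17.1% of the 82 at 5 CPM or more. In windows open in both, the shares at those levels were 1.06%, 3.67% and 3.61%. The decreased members fell by a median of 1.44 on the log2 scale, and the other windows within 100 kb of each had a median log2 fold change of 0.01. Between 60 and 130 Mb of chromosome 4, 10 of 125 members were decreased, and elsewhere 79 of 703 (11.2%). An AP-1 match was present in 36.0% of the decreased members and 41.2% of those not called. In windows open in both the shares with AP-1 were 57% of the decreased and 23.3% of the increased, against 30.8% of the class.

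**Figure D5:**
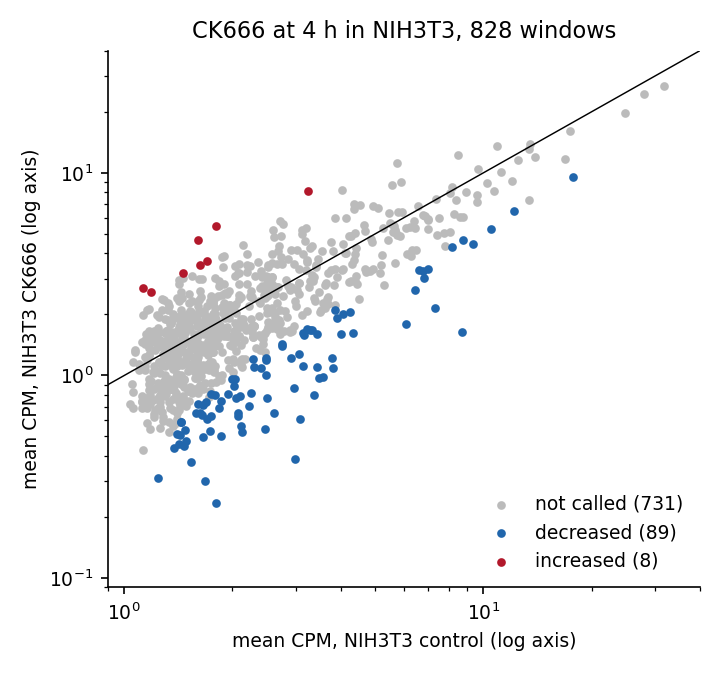
Mean CPM of each member in the 3 NIH3T3 control libraries (x) and the 3 NIH3T3 CK666 libraries (y), both on log axes, with the line of equal values. The 89 decreased members lie below the line, over the range of levels, and the 8 increased members above it.

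The largest losses, among members that averaged 50 or more normalized counts and whose groups did not overlap, had Sacm1l, Tcf4, Ly6l, Adgrl2 and Tmem167 as nearest genes. The intronic window 34963 bp from Sacm1l, a phosphoinositide phosphatase (chr9:123564722-123565351), gave 9.32, 8.33 and 8.54 CPM in control and 1.1, 1.97 and 1.86 CPM with CK666. The log2 fold change was -2.46 ± 0.195 SE (adjusted p = 1.04e-15). That the groups did not overlap was a condition of naming each of these windows. The window near Tcf4, a basic helix-loop-helix factor (33184 bp away, in an intron), gave 3.32, 3.77 and 3.66 CPM and then 0.966, 1.26 and 0.734 CPM (-1.96 ± 0.257 SE, adjusted p = 2.78e-08). The intergenic window 22923 bp from Ly6l gave 7.67, 6.35 and 7.94 CPM and then 2.62, 2.20 and 1.60 CPM (-1.91 ± 0.194 SE, adjusted p = 1.07e-11). These 3 windows kept at most 0.348 CPM in any MSC library. Adgrl2 codes for latrophilin-2, an adhesion receptor, and lay 469071 bp from a window that gave 3.82, 3.70 and 3.88 CPM and then 1.1, 1.26 and 0.907 CPM (chr3:149459626-149460158; -1.90 ± 0.246 SE, adjusted p = 1.81e-08). The window 331088 bp from Tmem167 (chr13:90420850-90421466) gave 3.61, 2.80 and 4.06 CPM and then 0.621, 1.43 and 0.864 CPM (-1.89 ± 0.268 SE, adjusted p = 2.01e-07). Under this filter 33 of 301 members were decreased and 6 increased (11% and 1.99%), against 4.10% and 1.58% of all autosomal windows at that level and 3.10% and 0.977% of those open in both.

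The largest gains were smaller than the largest losses. The intronic window 7691 bp from Tnr, the extracellular matrix protein tenascin-R (chr1:159745201-159745744), gave 1.85, 2.01 and 1.55 CPM in control and 5.73, 5.83 and 4.84 CPM with CK666 (log2 fold change 1.49 ± 0.203 SE, adjusted p = 6.82e-08). The window 96477 bp from Fat1, an atypical cadherin (chr8:44838420-44838970), gave 1.85, 1.40 and 1.55 CPM and then 4.07, 5.78 and 4.15 CPM (1.46 ± 0.221 SE, adjusted p = 9.59e-07). The window 16956 bp from Retnlb, a secreted resistin-like protein (chr16:48799357-48799900), gave 2.87, 3.45 and 3.44 CPM and then 6.83, 8.74 and 8.81 CPM (1.23 ± 0.171 SE, adjusted p = 1.18e-07). The same filter chose these gains, so that the treated libraries lay above every control was a condition of naming them. The windows 105260 bp from Dlg1 (chr16:31557118-31558183) and 82075 bp from D6Ertd527e (chr6:87186823-87187462) each rose by 1.03 on the log2 scale, and both calls were lost with DESeq2 and when NIH3T3 CK666 replicate 3 or NIH3T3 control replicate 1 was left out. The Dlg1 call was also lost without NIH3T3 CK666 replicate 2, and the D6Ertd527e call without NIH3T3 control replicate 3.

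CK666 at 4 h in MSC left the members low. The test called 8 of 828 members increased (0.966%) and none decreased, with 0.309% of all windows tested called increased. By the unadjusted p, 181 members (21.9%) were higher and 10 (1.21%) lower at p under 0.05, against 6.81% and 6.83% of all autosomal windows and 8.85% and 14.7% of windows open in both. DESeq2 called 5 members increased, and 926 of all windows. The members were chosen to be low in the MSC controls, so a rise in the other group is again built in, and the median log2 fold change of 0.64 rests on a few reads per window. Of the 1092 windows chosen by the same limits in the CK666 libraries, none was increased and 12 were decreased. The 188 that met the limits in each had no call by edgeR, 17 with an unadjusted p under 0.05 and a median of -0.02. The 6 members with the highest MSC CK666 level were nearest to Lpo, Cdc42, Sele, Kctd3, Nxpe4 and Pdgfa. The intronic window 722 bp from the start of Lpo, the lactoperoxidase gene (chr11:87824845-87825391), gave 0.135, 0.167 and 0 CPM in MSC control and 0.695, 0.515 and 0.468 CPM with CK666 (log2 fold change 2.40, adjusted p = 0.00131). In NIH3T3 the same window fell from 3.20, 3.34 and 2.66 CPM to 1.1, 1.57 and 1.12 CPM (-1.36 ± 0.253 SE, adjusted p = 6.10e-05). The window 20691 bp from the start of Cdc42, a GTPase that acts upstream of Arp2/3 (chr4:137336382-137337008, intron), gave 0.135, 0.133 and 0.137 CPM and then 0.537, 0.515 and 0.561 CPM in MSC (1.94, adjusted p = 0.00434). Sele, which codes for E-selectin, had a member 127 bp from its start (chr1:164048361-164048964) at 0.135, 0.133 and 0.137 CPM and then 0.506, 0.629 and 0.468 CPM (1.94, adjusted p = 0.00935). The treated libraries lay above all controls in these 3 windows, at under 1 CPM. The windows 236561 bp from Kctd3, 70566 bp from Nxpe4 and 1562 bp from Pdgfa had log2 fold changes of 1.87, 1.55 and 1.55 and were not called. The member near Nmi, at 15.8, 17.3 and 17.7 CPM in NIH3T3 control, gave 0.0675, 0 and 0.0684 CPM in MSC control and 0.190, 0.372 and 0.624 CPM in MSC CK666 (3.00, adjusted p = 0.000486).

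The difference of the 2 CK666 effects was tested directly. It was called at 26 members, all with a lower effect in NIH3T3 than in MSC, and at none with a higher effect. Of all windows tested, 0.903% had a called lower effect and 0.498% a called higher effect in NIH3T3. Both control groups chose the members, in opposite directions, and both choices push this difference below 0. Among the 1092 windows chosen with CK666 the calls turned round, with 20 higher and none lower in NIH3T3. Among the 188 that met the limits in each choice there was no call by edgeR, with 17 at an unadjusted p under 0.05 (5 higher, 12 lower). Of the 828 members, 5 were higher and 275 lower at that limit. Of the 84089 windows open in both, 7080 were higher and 18618 lower, so that class leaned the same way.

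The 24 h libraries of MSC played no part in the choice, and their table lists far fewer members. Of the 828 members, 68 (8.21%) overlapped a region of the 24 h table by at least 1 bp, against 99.0% of windows open in both and 64.0% of all autosomal windows. These 68 members met 69 regions with a median width of 799 bp, and the mean control level of the regions ran from 0.191 to 3.39 CPM with a median of 0.629 CPM. The median over all regions of that table was 1.11 CPM and 8 of the 69 reached 1 CPM in all 3 controls. A region can be wider than the member it overlaps, so its reads are not all from the member.
CK666 at 24 h increased 2 of the 66 regions that passed the filter and decreased none, and of all regions tested 1.88% were increased and 1.05% decreased. The 2 were an intronic region 36439 bp from Htra1, a secreted serine protease (chr7:130972621-130973251), and a region 3829 bp from Lrrc75b (chr10:75555520-75556511). The Htra1 region gave 0.496, 0.313 and 0.0924 CPM in control and 1.22, 1.22 and 1.43 CPM with CK666 (log2 fold change 2.17 ± 0.576 SE, adjusted p = 0.00609). The Lrrc75b region gave 0.496, 0.850 and 0.231 CPM and then 1.62, 2.12 and 0.921 CPM (1.54 ± 0.426 SE, adjusted p = 0.00920). The treated libraries lay above the controls in each. CytoD at 24 h increased 1 region and decreased none, where 0.980% of all regions tested were increased and 1.40% decreased. It lay 12638 bp from Cyb561a3 (chr19:10590129-10590846) and gave 0.708, 0.716 and 0.600 CPM in control and 2.20, 2.14 and 2.11 CPM with CytoD (1.59 ± 0.393 SE, adjusted p = 0.00294). The region at the start of Sele, called at 4 h, gave 0.212, 0.179 and 0.508 CPM in control and 0.343, 0.988 and 0.870 CPM with CK666 at 24 h, and these groups overlapped (1.24 ± 0.634 SE, adjusted p = 0.253, not called). Of the 66 regions tested, CytoD had an unadjusted p under 0.05 in 19 and CK666 in 9. The same count was not made over all regions, so neither number is read as a result about the members. DESeq2 called none of the 69 for either treatment, and the 2 comparisons share their 3 control libraries.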

How the data were processed

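Libraries were made with Omni-ATAC from 50000 cells each. Per the study's methods, reads were processed with PEPATAC, aligned with bowtie2, peaks were called with MACS2 and the peaks of the replicates of a condition were joined, and per the labels the build is mm10. Their versions are not stated there. The deposited tables hold whole-number read counts per merged peak from the authors, not normalized, in 1 table for 4 h (12 libraries) and 1 for 24 h, of which 9 libraries were used. The 9 siRNA columns of that table were not used. Each table lists 1 set of windows for all its libraries, so a window of 1 cell type is counted in the other.

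From the counts, CPM was computed by column total. edgeR 4.0.16 (R 4.3.3; TMM, default filter on low counts, quasi-likelihood test, no replicate block) was fitted on all windows, and calls needed a Benjamini-Hochberg adjusted p below 0.01 with a log2 fold change over 1 in size. NIH3T3 CK666 was fitted with its control, and against MSC CK666, on 6 libraries each. CK666 in MSC and the difference of effects used the 12 libraries, and 24 h used 9. DESeq2 1.42.0 was an alternative. Scripts were tested on simulated data. Gene starts, exons and introns came from GENCODE vM21 (basic set, GRCm38) and sequence from RefSeq GRCm38.p6, with gene starts within 50 kb counted as near. An intron or exon can be of a gene other than the nearest one. Standard errors are of the log2 fold change. Counting error is all that read numbers bound here, since PCR copies were not told apart by molecular identifiers.

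Members, lists and tests were chosen with earlier results of these data known. Genes were named by a rule: the 10 with most members, the 6 highest members, the 5 largest gains and losses with a mean of 50 or more normalized counts and no overlap, the 6 highest gene starts, up to 4 genes per list, the 6 highest members in MSC CK666 and the largest called 24 h changes. Alternatives were other scalings, DESeq2, no filter, the replicate number as a block, each library left out, other CPM limits and members chosen in the CK666 libraries. Those on regional scaling, chromosome 4 and the choice in either or each set of libraries were added after seeing the data. The sequence of 1 named member is not reported here.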

Additional observations from a re-analysis of the deposited data

Results flagged for a closer look

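The CK666 effect differed between the cell types, by the interaction test of the 12-library fit, at 26 members, each with the lower effect in NIH3T3 (3.14% of members, against 0.903% of all windows tested). Among the members named in the report the differences of the log2 fold changes (NIH3T3 minus MSC) were -3.78 for the window nearest to Lpo, -3.65 for Nmi, -3.53 for Tmem167, -2.88 for Kctd3, -2.41 for Ly6l, -2.22 for Cdc42, -2.12 for Nxpe4 and -1.90 for Pdgfa. The Lpo window was the one of these called in both cell types, decreased in NIH3T3 and increased in MSC. The members were chosen in the control libraries of both cell types, and with the same limits set in the CK666 libraries none of 1092 windows had a lower effect in NIH3T3 and 20 had a higher one. The 188 windows that met the limits in both sets of libraries had no call by edgeR, with 17 at an unadjusted p under 0.05. With single libraries left out, 11 to 35 members were called.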

How the results depend on the processing

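Scaling by DESeq2 size factors or total counts, no filter, the replicate block and DESeq2 gave 60 to 95 members decreased by CK666 in NIH3T3, 717 to 776 higher in NIH3T3 than in MSC with CK666 and 20 to 30 with a lower effect in NIH3T3. Total counts moved the median log2 value of all windows from 0.04 to 0.14 for CK666 in NIH3T3, from 0.07 to 0.39 for NIH3T3 against MSC and from 0.05 to 0.15 for the difference of effects. Members increased in NIH3T3 numbered 17 with total counts and 4 with DESeq2, and members increased in MSC 5 with DESeq2. Other limits gave 16.1% decreased and 0.351% increased in NIH3T3 and 6.67% with a lower effect at limits of 2 and 0.2 CPM, and 0% increased in NIH3T3 and 1.55% in MSC at 1 and 0.1 CPM. Members chosen in the CK666 libraries gave 4.03% decreased and 7.97% increased in NIH3T3 and 0% increased in MSC. Windows chosen in either set of libraries gave 7.10%, 5.37% and 0.462%, and windows chosen in each gave 5.32% decreased in NIH3T3 and 0% increased in MSC. The share at 0.2 CPM or less in MSC CK666 was 56.6% at limits of 1 and 0.1 CPM, and the share at 1 CPM or more in NIH3T3 CK666 was 92.6% at limits of 2 and 0.2 CPM. Within 10 kb, 20% of members had a gene start.

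Leaving out single libraries, the counts ran from 65 to 94 decreased and 4 to 10 increased in NIH3T3, 3 to 6 increased in MSC, 711 to 739 higher in NIH3T3, 11 to 35 with a lower effect, 0 to 2 regions increased by CK666 and 0 to 1 by CytoD at 24 h, and 921 to 1663 members by the rule. The count increased in NIH3T3 was 5 without NIH3T3 CK666 replicate 2 or NIH3T3 control replicate 1 and 4 without NIH3T3 control replicate 3. The MSC count fell below 6 without any 1 of MSC CK666 replicate 1, 2 or 3 (4, 4 and 3) or MSC control replicate 1 or 3 (3 and 4). The count with a lower effect was 17 and 13 without MSC CK666 replicate 1 and 3, 12, 14 and 12 without MSC control replicate 1, 2 and 3, and 11 and 17 without NIH3T3 control replicate 1 and 3. At 24 h the CK666 count of 2 fell to 0 without MSC control replicate 3 or MSC CK666 replicate 1 or 2 and to 1 without MSC control replicate 1 or 2, MSC CK666 replicate 3 or MSC CytoD replicate 3, and the CytoD count of 1 fell to 0 without MSC control replicate 2 or 3 or any 1 of the CytoD libraries. The CK666 count of 2 also fell to 1 with DESeq2 size factors, total counts, no filter or the replicate block and to 0 with DESeq2, and the CytoD count to 0 with DESeq2. The cause was not tested. With CPM by TMM effective library size the rule gave 599 members.

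The replicate numbers did not pair the samples, since correlations of the deviations of same-numbered libraries were between -0.057 and 0.029. The replicate block gave 93 members decreased and 7 increased in NIH3T3, 6 increased in MSC, 735 higher in NIH3T3 and 21 with a lower effect. The low read numbers of members in MSC, 3.00 to 4.00 at the median in control, limit every statement on their change there.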

Other observations

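Around Cdkn2a, 23 consecutive windows over 137318 bp (chr4:89250375-89387692) had an NIH3T3 control mean of at most 0.0410 CPM, while their MSC control means ran from 0.394 to 19.4 CPM with a median of 1.69 CPM. On each side of this run the members, which are open in NIH3T3 and near 0 in MSC, came close. The nearest before it ended 35143 bp away (chr4:89214601-89215231) and the nearest after it began 92079 bp away (chr4:89479772-89480562), and 8 members lay within 400 kb of the run, 4 of them the group with Ifne as nearest gene, which holds the second highest member. These windows were looked at after the values were seen, and whether the members are tied to the run was not tested.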
